A study of Arabidopsis thaliana with 4 samples.

Results

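The transcripts of JAZ1 to JAZ10, repressors of the jasmonate response, were followed in rosette leaves of Arabidopsis thaliana by RNA sequencing. The 10 genes were taken by locus, whatever their level, and all 10 were among the 33059 features listed. Leaves of OE plants, in which the CaMV 35S promoter drives ERF4 expression, were set against leaves of wild-type plants (WT). Each genotype had 2 libraries and all plants were 28 days old. The 35S promoter is active in most tissues, so ERF4 may have been raised outside leaves too, which was not measured here. The labels do not say how many transgenic lines were used, whether plants were pooled, or whether the replicates are separate plants. The p-values therefore describe the spread among these libraries, part or all of which may be technical.

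JAZ proteins carry a TIFY motif and a C-terminal Jas motif. In the resting state they bind MYC transcription factors and, through the adaptor NINJA or directly, recruit corepressors of the TOPLESS family. When jasmonoyl-isoleucine is present, the F-box protein COI1 binds JAZ proteins and marks them for degradation, which frees the MYC factors. Most JAZ genes are themselves MYC targets, so their transcripts are known to rise quickly after wounding or jasmonate treatment and to restore repression. ERF4, a repressor of the ethylene response factor family, is known to act where ethylene and jasmonate responses meet, and the comparison addresses whether leaf transcripts of the JAZ genes differed when it was overexpressed.

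Levels were TPM, a length-corrected abundance with one fixed total per library. They keep no record of read numbers, so depth is unknown. ERF4 had 24.47 and 28.84 TPM in OE against 9.68 and 10.6 TPM in WT, in the direction of the labels. Its log2 fold change of 1.31 did not pass the test over all features (limma, Benjamini-Hochberg adjusted p = 0.381). A gene without a call may therefore still differ between the genotypes. Leaf markers were abundant in every library: the small Rubisco subunit gene RBCS1A had 13701.32 and 11396.41 TPM in OE against 20976.17 and 9315.95 TPM in WT. Among flower markers, 4 of 5 never passed 1.2 TPM, with SEP3 the exception at up to 3.21 TPM. The 5 seed markers summed to 0.51 and 3.77 TPM in OE against 43.1 and 50.6 TPM in WT. All 3 tested ones were apart between the genotypes, beside 27.9% of all features tested. Of these 3, CRU3 and OLEO1 entered the test only through their WT values, a filter that favours the sign they have. CRU3, which encodes a cruciferin, fell in OE, at 0.04 and 0.21 TPM against 10.04 and 25.16 TPM in WT (log2 fold change -3.92, limma, Benjamini-Hochberg adjusted p = 0.0182). This call did not hold at a pseudocount of 5, with no filter, with quantile normalization or median-ratio scaling, and without either WT library. The 4 root hair markers summed to 285.2 and 215.1 TPM in OE against 258.5 and 502.9 TPM in WT. Most of each sum came from PRP3, at 253.36 and 190.51 TPM in OE against 236.0 and 477.1 TPM in WT. EXPA7, COBL9 and RHD6 were each highest in OE replicate 1. All 4 were above 0 in every library, though the labels name leaves. The part of these markers in the results below was not tested. A listed 0 may be a failed estimate, since LHCB1.5, a gene of the main light-harvesting complex, was listed at 0 throughout. Fewer cells of a type and less RNA per cell cannot be told apart in such bulk samples.

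No JAZ member passed the test between the genotypes. Of the 10 members, 9 had a mean of at least 1 TPM and entered the test, and 0 passed it in either direction (limma on log2(TPM + 1), Benjamini-Hochberg adjusted p = 1.0 for each of the 9), beside 0.09% of the 20010 features tested, 0.06% higher and 0.03% lower in OE. At an unadjusted p under 0.05 the count of members was also 0, beside 5.3% of all features. The log2 fold change of OE over WT was negative for 6 tested members and positive for 3, with a median of -0.15 beside -0.02 over all features tested. With JAZ8, which was too low to test, the median over all 10 was -0.18. The sign of the median turned on single libraries: it was 0.16 without OE replicate 1, and it was -0.48 without WT replicate 1. Standard errors of the members ran from 0.369 to 0.651 on the log2 scale, and the 95% interval of each tested member crossed 0.

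**Figure D1:**
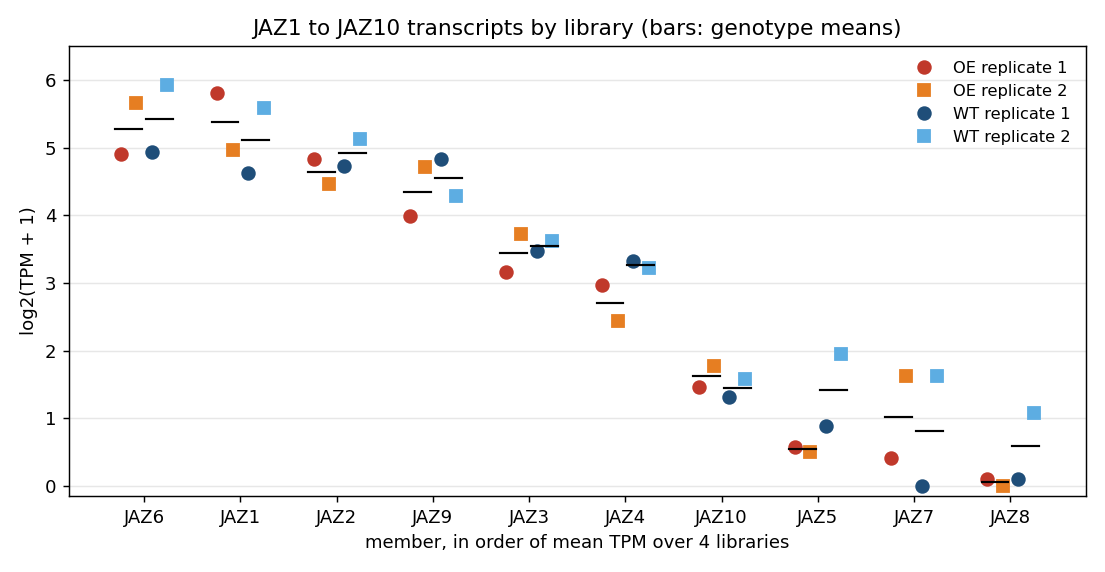
Level of each JAZ member in each library, as log2(TPM + 1), with the members in order of mean TPM and short bars at the genotype means. JAZ6, JAZ1, JAZ2 and JAZ9 lie highest, JAZ10, JAZ5, JAZ7 and JAZ8 lowest, and the OE points lie below both WT points for JAZ4 and JAZ5 alone.

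The members fell into 3 tiers that did not overlap in any library. JAZ6, JAZ1, JAZ2 and JAZ9 stood between 14.8 and 59.89 TPM. JAZ3 and JAZ4 stood between 4.4 and 12.23 TPM, and JAZ10, JAZ5, JAZ7 and JAZ8 at or below 2.87 TPM. Within each tier the ranges of neighbouring members overlapped across libraries. JAZ3 was above JAZ4 in each of the 4 libraries, while the order within the top and lowest tiers changed between libraries. The mean of JAZ6 over the 4 libraries was above that of 86.6% of listed features, and the mean of JAZ8 above that of 33.7%.

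The size of the JAZ transcript pool did not separate the genotypes. Summed over the 10 members it was 143.2 and 147.2 TPM in OE against 127.4 and 186.7 TPM in WT, a ratio of means of 0.925. The OE libraries lay between the WT libraries. The top tier held 87.8% and 85.3% of the sum in OE against 83.1% and 85.2% in WT. Both OE shares lay above both WT shares, by as little as 85.3% against 85.2%. The lowest tier held 1.86% and 3.36% in OE against 1.89% and 4.32% in WT, and there the genotypes overlapped.

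**Figure D2:**
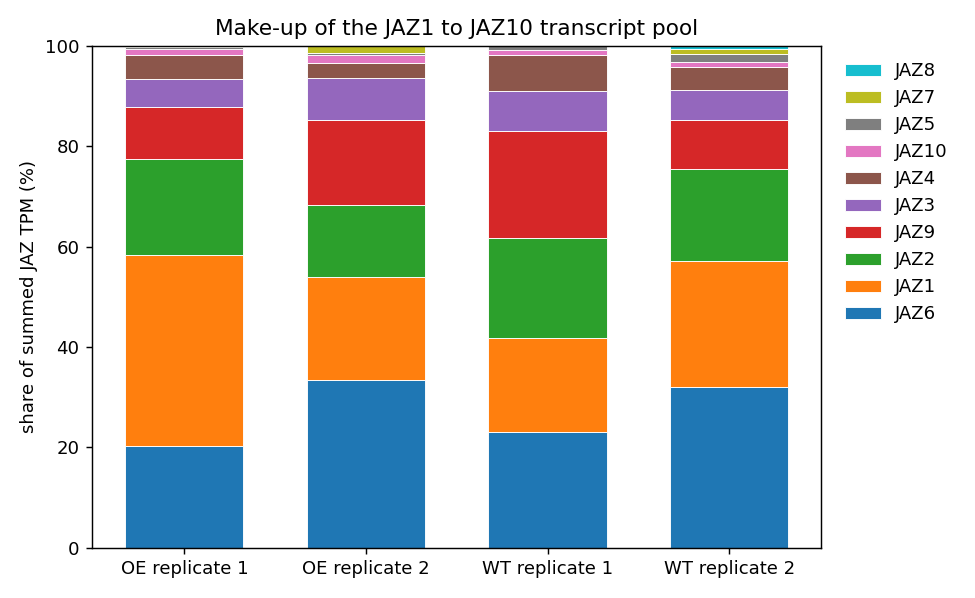
Share of each member in the summed TPM of JAZ1 to JAZ10, in percent, for each library. The top tier (JAZ6, JAZ1, JAZ2 and JAZ9, the lowest segments of each bar) makes up 83.1% to 87.8% of every bar, while JAZ1 takes 38.2% in OE replicate 1 and 18.7% to 25.1% in the other libraries.

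JAZ1 (AT1G19180), one of the first family members shown to be degraded through COI1, had 54.68 and 30.17 TPM in OE against 23.77 and 46.82 TPM in WT. The highest and the second lowest of these came from the same genotype, and the groups overlapped. Its log2 fold change was 0.28 (95% interval -0.72 to 1.27), and it turned to -0.14 without OE replicate 1 and to -0.20 without WT replicate 1. JAZ6 (AT1G72450), whose rhythmic level is known to set a time-of-day difference in resistance to Botrytis, had 28.9 and 49.24 TPM in OE against 29.42 and 59.89 TPM in WT. Each genotype had a low and a high library, and the log2 fold change was -0.15 (95% interval -1.14 to 0.84). It was 0.22 without OE replicate 1 and 0.35 without WT replicate 2.

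In OE replicate 1 JAZ1 was the most abundant member, with 38.2% of the JAZ sum, and in the other 3 libraries it was JAZ6. Some clock transcripts, picked after seeing their values, also differed between the OE libraries. LHY, a morning transcription factor, had 236.14 and 64.17 TPM in OE replicates 1 and 2, and PRR7, a later repressor, had 22.76 and 149.73 TPM. Other clock genes differed less there, such as LUX at 24.28 and 22.75 TPM and ELF4 at 30.77 and 34.76 TPM. In WT, LHY had 178.05 and 179.64 TPM and PRR7 39.89 and 68.02 TPM. The part of these differences in the levels of JAZ1 and JAZ6 was not tested.

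JAZ2 (AT1G74950), which acts in stomatal movement during bacterial attack, had 27.35 and 21.05 TPM in OE against 25.4 and 33.9 TPM in WT. The groups overlapped, and the log2 fold change was -0.28 (95% interval -1.10 to 0.54). JAZ9 (AT1G70700), known to bind the DELLA protein RGA and so to touch growth control, had 14.8 and 25.19 TPM in OE against 27.31 and 18.4 TPM in WT. It was the only member of its tier with a higher level in WT replicate 1 than in WT replicate 2. Its log2 fold change was -0.20 (95% interval -1.09 to 0.68), which turned to 0.16 without OE replicate 1 and to 0.07 without WT replicate 1.

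JAZ3 (AT3G17860), whose truncated form makes the jai3-1 mutant insensitive to jasmonate, had 7.99 and 12.23 TPM in OE against 10.15 and 11.29 TPM in WT. Both WT values lay between the OE values, and the log2 fold change of -0.10 (95% interval -0.92 to 0.72) was the closest to 0 among the members. It was 0.18 without OE replicate 1. JAZ4 (AT1G48500), which restrains the cold regulator ICE1 and binds the senescence factor WRKY57, had 6.86 and 4.4 TPM in OE against 8.99 and 8.29 TPM in WT. Both OE libraries lay below both WT libraries. The means were 5.63 ± 1.74 TPM in OE and 8.64 ± 0.495 TPM in WT (SD, n = 2 each), and the log2 fold change was -0.56 (95% interval -1.40 to 0.27).

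JAZ5 (AT1G17380), which together with JAZ10 is known to dampen the response to the jasmonate mimic coronatine, had 0.49 and 0.42 TPM in OE against 0.85 and 2.87 TPM in WT. The OE libraries lay below the WT libraries and close to each other, while WT replicate 2 stood well above WT replicate 1. The means were 0.455 ± 0.0495 TPM in OE and 1.86 ± 1.43 TPM in WT (SD, n = 2 each). On the log2(TPM + 1) scale, which understates the change of so low a gene, the fold change was -0.88 (95% interval -2.05 to 0.29). JAZ5 entered the test only through its WT values. Without WT replicate 2 its mean was too low to test.

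JAZ4 and JAZ5 were thus the members with all OE values below all WT values, 2 of the 9 tested, beside 14.2% of all features tested. No member had both OE values above both WT values, beside 13.7% of all features. For JAZ4 alone the difference between the genotype means on the log2 scale was larger than the difference between libraries within each genotype. The margin was narrow, at 0.564 against 0.542 between the OE libraries, with 0.105 between the WT libraries. Such an order held for 16.5% of all features. These shares do not set the family apart from the rest of the transcripts. An exact two-sided permutation test on a single gene could not go below p = 0.333 in this design.

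JAZ10 (AT5G13220), which limits jasmonate sensitivity and is made in several splice forms that differ in the Jas motif, had 1.77 and 2.43 TPM in OE against 1.48 and 1.98 TPM in WT. The groups overlapped, with a log2 fold change of 0.18 (95% interval -0.79 to 1.16). A gene-level TPM does not separate its splice forms. JAZ7 (AT2G34600), a repressor of dark-induced leaf senescence, had 0.33 and 2.09 TPM in OE against 0 and 2.1 TPM in WT, so each genotype held a library near 0 and a library near 2.1 TPM. Its log2 fold change was 0.20 (95% interval -1.23 to 1.64), and -0.61 without WT replicate 1. JAZ8 (AT1G30135), which lacks the canonical degron and so resists degradation, had 0.08 and 0 TPM in OE against 0.08 and 1.12 TPM in WT. A value above 0.08 TPM was present in WT replicate 2 alone, and the gene stayed below the limit for testing.

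**Figure D3:**
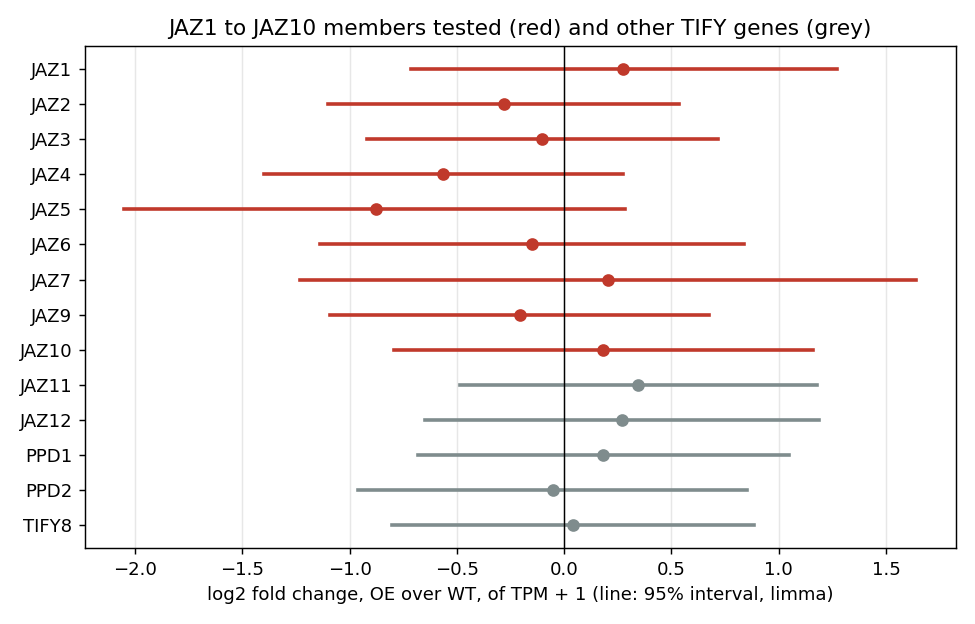
Log2 fold change of OE over WT, of TPM + 1, for the 9 JAZ members tested (red) and for 5 other TIFY genes (grey), with 95% intervals from limma. Every interval crosses 0, and the estimates of the members run from -0.88 for JAZ5 to 0.28 for JAZ1.

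The TIFY genes outside JAZ1 to JAZ10 likewise gave 0 calls among 5 tested of 6, with a median log2 fold change of 0.18 and 0 genes whose groups were apart, beside 27.9% of all features. The median was 0.02 without WT replicate 1, 0.05 without OE replicate 2 and 0.43 without WT replicate 2. JAZ12, a member stabilised by the ubiquitin ligase KEG, was more abundant per length than any of JAZ1 to JAZ10 in every library. It had 87.15 and 85.72 TPM in OE against 54.01 and 94.57 TPM in WT, with a log2 fold change of 0.27 (95% interval -0.65 to 1.19). JAZ11 had 13.06 and 20.08 TPM in OE against 10.97 and 14.32 TPM in WT, and JAZ13, a divergent member, was listed at 0 in all 4 libraries. PPD1, which restrains leaf growth, had 4.22 and 5.21 TPM in OE against 3.48 and 4.63 TPM in WT.

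Partners of the JAZ proteins also gave 0 calls. Of the list of COI1, MYC factors, the coactivator MED25 and the competing JAM factors, 7 of 8 genes were tested, with 3 positive and 4 negative fold changes and a median of -0.05, which turned to 0.28 when WT replicate 2 was left out and was -0.36 when WT replicate 1 was. MYC4, a MYC factor bound by JAZ proteins that acts with MYC2 and MYC3, had 11.27 and 11.9 TPM in OE against 19.5 and 22.13 TPM in WT. The groups were apart and the spread within each was small, with a log2 fold change of -0.79 (95% interval -1.56 to -0.02), which did not pass over all features (limma, Benjamini-Hochberg adjusted p = 0.911). MED25 had 26.45 and 20.35 TPM in OE against 12.89 and 24.09 TPM in WT, and JAM1, a MYC-like repressor, 7.95 and 9.03 TPM against 9.08 and 10.78 TPM.

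MYC2, singled out after its values were seen as the best known MYC factor of the pathway, was listed at 0 and 1.07 TPM in OE against 0.26 and 0 TPM in WT. It was too low to test, beside 52.64 and 54.68 TPM in OE against 37.18 and 69.12 TPM in WT for MYC3. The listed values of MYC2 may be a failed estimate, as may the 0 of LHCB1.5, so they do not show that the gene was silent. No direction can be read from listed values of this size. COI1 itself had 21.31 and 18.58 TPM in OE against 18.66 and 25.25 TPM in WT, with overlapping groups.

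Among the corepressors, all 6 genes were tested, with 0 calls, 4 positive and 2 negative fold changes and a median of 0.13. Leaving out WT replicate 1 gave a median of -0.06, and leaving out WT replicate 2 gave 0.33. TPL, the TOPLESS corepressor, was the 1 gene of 6 whose groups were apart, beside 27.9% of all features, at 57.06 and 54.14 TPM in OE against 35.59 and 46.79 TPM in WT, a log2 fold change of 0.44 (95% interval -0.39 to 1.26). Its relatives TPR1 and TPR2 had overlapping groups, and so had NINJA, at 38.68 and 39.11 TPM in OE against 32.61 and 44.09 TPM in WT. Of 10 other transcription factors bound by JAZ proteins, 6 were tested with 0 calls, and the flower factors MYB21 and MYB24 were listed at 0 throughout. WRKY57, a partner of JAZ4 and JAZ8 in senescence, had 51.58 and 31.54 TPM in OE against 50.19 and 102.64 TPM in WT. TT8, a factor of flavonoid synthesis, had 3.28 and 1.09 TPM in OE against 0.86 and 0.64 TPM in WT, and EIN3, the ethylene master factor, 143.31 and 142.44 TPM against 65.31 and 155.26 TPM. TT8 entered the test only through its OE values, a filter that favours the sign it has.

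**Figure D4:**
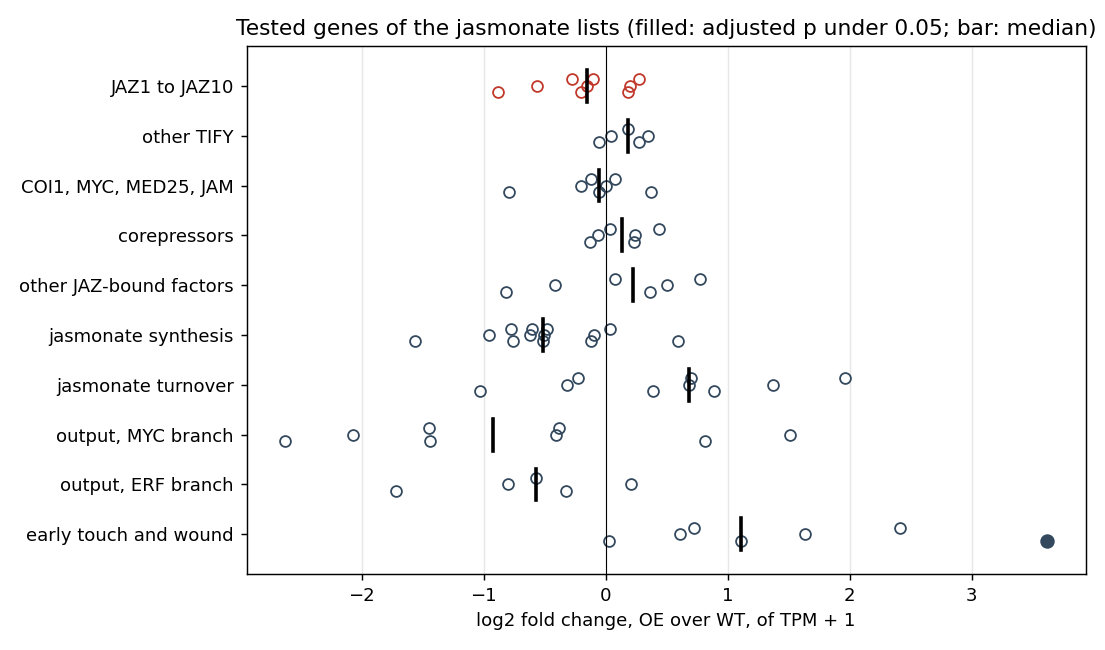
Log2 fold change of OE over WT, of TPM + 1, for each tested gene of the JAZ members and 9 lists of the same pathway, with a black bar at the median of each list. Open points did not pass the threshold, TCH4 in the touch and wound list is the only filled point, and the medians run from -0.92 for the MYC branch of outputs to 1.11 for touch and wound genes.

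The enzymes that make jasmonate had mostly negative fold changes. Those that remove it were mixed, with 6 of 9 tested positive. Neither list held a call. Of 13 synthesis genes, all tested, 11 had a negative log2 fold change, the median was -0.51, and 7 had all OE values below all WT values, beside 14.2% of all features. Without WT replicate 2 the negative count was 8 and the median -0.28. LOX3 and LOX4 entered the test only through their WT values. LOX3, a lipoxygenase of the first step, lies 2 protein-coding genes from JAZ5 in the RefSeq gene table for TAIR10.1, and LOX4 lies 6 from JAZ6. LOX3 had 0.77 and 0.71 TPM in OE against 4.07 and 4.16 TPM in WT, with the groups apart as for JAZ5 (limma, Benjamini-Hochberg adjusted p = 0.398). LOX4 had 0.94 and 0.45 TPM in OE against 1.56 and 1.22 TPM in WT, with the groups apart, while JAZ6 overlapped.

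OPCL1, which activates a jasmonate precursor for beta-oxidation, had 13.95 and 7.8 TPM in OE against 17.66 and 25.41 TPM in WT, and AOS, the allene oxide synthase, 22.89 and 28.15 TPM against 57.8 and 33.77 TPM. Both had all OE values below all WT values. AOC1, AOC2 and AOC3 are close copies, so the split of reads between them is uncertain.

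Of 10 turnover genes, 9 were tested, 6 of them with a positive log2 fold change, and the median was 0.68. The median was 0.05 without WT replicate 1, 0.22 without OE replicate 2 and 1.03 without OE replicate 1. Negative values were those of IAR3 and of the jasmonate oxidases JOX3 and JOX4. JOX4 entered the test only through its WT values, and CYP94C1 only through its OE values. JOX1, too low to test, had 0.06 and 0.12 TPM in OE against 1.0 and 0.83 TPM in WT. CYP94B3, which oxidises jasmonoyl-isoleucine, had 2.15 and 9.58 TPM in OE against 1.97 and 0.67 TPM in WT, a log2 fold change of 1.37 (95% interval 0.08 to 2.67) that did not pass (limma, Benjamini-Hochberg adjusted p = 0.883). ILL6, which cleaves jasmonate conjugates, had 6.84 and 14.38 TPM in OE against 5.03 and 6.55 TPM in WT. ST2A, a sulfotransferase of hydroxyjasmonate, had 44.05 and 53.15 TPM in OE against 1.83 and 55.76 TPM in WT, so its fold change rests on WT replicate 1.

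Output genes gave 0 calls as well. In the MYC branch 6 of 8 tested genes had a negative log2 fold change and the median was -0.92. Of these, VSP2, TAT3 and NATA1 entered the test only through their WT values, a filter that favours the sign they have. Leaving out WT replicate 2 gave a median of -0.02, and leaving out OE replicate 1 gave -0.60. CORI3, a lyase induced by coronatine, had 0.91 and 3.48 TPM in OE against 4.82 and 24.96 TPM in WT, and the storage protein gene VSP2 0.08 and 0.98 TPM against 2.48 and 3.59 TPM. NAC055, a MYC target of the NAC family, went the other way, at 4.12 and 6.13 TPM in OE against 0.62 and 1.76 TPM in WT. Their limma adjusted p (Benjamini-Hochberg) ran from 0.475 for NAC055 to 0.606 for VSP2. In the ERF branch 5 of 7 genes were tested, 4 with a negative log2 fold change and a median of -0.57, and PDF1.2 entered only through WT. Most of these signs rest on WT replicate 2: without it 1 of 5 was negative, PDF1.2, and the median was 1.16. Without WT replicate 1 the median was -2.09. ORA59, an activator of that branch, had 3.1 and 1.62 TPM in OE against 1.35 and 12.92 TPM in WT, and the hevein-like PR4 gene 329.31 and 141.2 TPM against 95.01 and 1078.7 TPM. The defensin gene PDF1.2 was listed at 0 in both OE libraries, against 0.62 and 5.66 TPM in WT. So were PDF1.2b, against 0.46 and 0.24 TPM in WT, and PDF1.3, against 1.34 and 0.81 TPM, both too low to test.

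Early touch and wound genes, which often move with JAZ genes after injury, had positive log2 fold changes in all 7 tested of 8. Their median was 1.11. The value of ZAT10 was 0.03, and its groups overlapped, as did those of WRKY33. Without OE replicate 1, and also without WT replicate 2, 6 of the 7 were positive. TCH4 rose in OE, at 154.12 and 393.11 TPM against 17.72 and 20.64 TPM in WT (log2 fold change 3.62, limma, Benjamini-Hochberg adjusted p = 0.0219). With quantile normalization, with median-ratio scaling, with no filter on low values and without either WT library this call was lost, as was every other call among all features. Of the tested JAZ members, 6 had a negative and 3 a positive log2 fold change. The touch and wound list, like the others, was chosen with earlier results of these data known. A link between it and the JAZ levels was not tested. Of the 9 clock genes, 5 had a positive and 4 a negative log2 fold change, with 0 calls. PRR9, a morning repressor, had 2.44 and 11.03 TPM in OE against 15.05 and 15.62 TPM in WT, TOC1, an evening repressor, 28.64 and 36.69 TPM against 14.77 and 24.51 TPM, and ELF4, an evening gene, 30.77 and 34.76 TPM against 20.71 and 21.35 TPM.

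The WT libraries differed from each other in jasmonate outputs, though not in these alone. All 4 leaf markers above 0 were highest in WT replicate 1, in TPM and after median-ratio scaling. One of them, PSBS, had 1366.78 TPM in WT replicate 1 and 486.57 TPM in WT replicate 2. NATA1, an acetyltransferase induced by jasmonate and picked after seeing its values, had 37.24 TPM in WT replicate 2 and at most 0.05 TPM in the other 3 libraries. TAT3, a tyrosine aminotransferase induced by jasmonate, had 8.38 TPM there and at most 0.3 TPM elsewhere, and JOX4, a jasmonate oxidase, 5.36 TPM there and at most 0.52 TPM elsewhere; both were picked in the same way. All 8 genes of the MYC branch were higher in WT replicate 2 than in WT replicate 1, and so were 8 of the 10 JAZ members, with JAZ4 and JAZ9 the exceptions. In TPM 71.3% of all tested features had that order, so the count of members is near the background. After median-ratio scaling the order held for 50.8% of all features, for 8 of 8 MYC-branch genes and for 7 of 10 JAZ members.

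**Figure D5:**
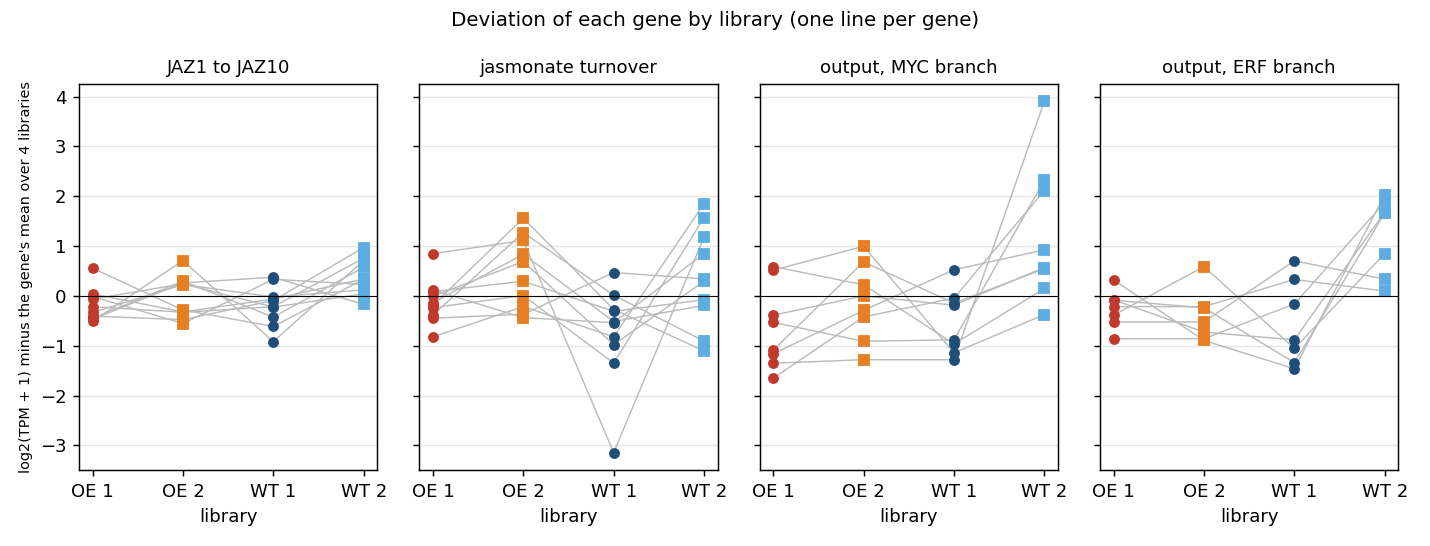
Deviation of log2(TPM + 1) from the mean over the 4 libraries, for each gene of the JAZ members and of the turnover and output lists; a line joins the values of 1 gene. WT replicate 2 holds the highest values of 5 of 8 MYC-branch genes, 5 of 7 ERF-branch genes and 5 of 10 JAZ members. Deviations of the JAZ members stay within 1 log2 unit, and NATA1 in WT replicate 2 lies farthest from 0.

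WT replicate 2 held the highest value of 5 of the 10 JAZ members, JAZ2, JAZ5, JAZ6, JAZ7 and JAZ8, beside 42.8% of all tested features. After median-ratio scaling it was 4 of 10, beside 24.8%. JAZ7 was at 2.1 TPM there and at 2.09 TPM in OE replicate 2, so this library did not stand alone for that gene. For JAZ5 and JAZ8, by contrast, the next highest library had 0.85 and 0.08 TPM.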

How the data were processed

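The authors deposited 1 table of gene-level TPM for the 4 libraries, together with their mean TPM per genotype, which was not used. The tools fastp, HISAT and RSEM stand in the submitters' processing notes. Their versions and the build, annotation and filters were not given in the sources used here. Per the labels' protocols, total RNA was extracted from leaves and treated with DNase. WT replicate 2, so named by its title, has a column numbered otherwise and was matched by its label. The RefSeq table for TAIR10.1 served for names and gene order only: 32548 listed loci matched it, and 108 of 114 list symbols, including those of all members, were found in it.

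OE was tested against WT with limma 3.58.1 in R 4.3.3 on log2(TPM + 1), for the 20010 features that averaged 1 TPM or more. The model held genotype alone, with a variance trend. Tests were two-sided, with a threshold of 0.05 on the Benjamini-Hochberg adjusted p over all of them. The fit had 2 residual and 8.73 prior degrees of freedom. Intervals at 95% are not adjusted for the number of features. The fit was tested on simulated data. Alternatives changed the pseudocount, filter, scaling, variance prior, block and libraries.

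The 15 gene lists, that of the members included, were chosen with earlier results of these data known. Named are the members, ERF4, JAZ11 to JAZ13 and, per list, called genes or else up to 3 with the smallest p; others named were chosen after their values were seen or mark tissue, partners or gene order. Depth is unknown, so no counting interval is given.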

Additional observations from a re-analysis of the deposited data

How the results depend on the processing

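No JAZ member was called under any of the 14 alternatives, where the lowest adjusted p of a member was 0.69 (limma, Benjamini-Hochberg). Of 120 member values under alternatives 112 kept their sign, and the 8 that turned came from leaving out 1 library: JAZ1 ran from -0.20 to 0.75, JAZ3 from -0.38 to 0.18, JAZ6 from -0.65 to 0.35, JAZ7 from -0.61 to 0.81 and JAZ9 from -0.57 to 0.16. A change of filter, variance prior, variance trend or block leaves the fold change of a member as it was. Signs under those settings could not turn, so the count of kept signs overstates their stability. JAZ2, JAZ4 and JAZ5 stayed negative and JAZ10 positive wherever they were tested. The JAZ median ran from -0.48 to 0.16 when 1 library was left out and stayed between -0.19 and -0.14 otherwise. Leaving out WT replicate 1 moved the median of all features to -0.17, and leaving out WT replicate 2 moved it to 0.14.

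The number of features called was 18. It was 0 with no filter, with quantile normalization and with median-ratio scaling, where 1072, 1114 and 1131 features had an unadjusted p under 0.05. It was 63 at a mean of at least 5 TPM, 108 with a robust prior, 338 with the replicate block, and 0 to 293 when 1 library was left out. In the pathway lists, marker lists aside, 1 gene, TCH4, was called. The count was 0 with no filter, quantile normalization or median-ratio scaling, 3 with a robust prior, all of them touch and wound genes, and 0 to 3 when 1 library was left out. Per list that range was 0 to 1 for turnover, the MYC branch and touch genes. With the replicate block it was 6, of which 1 was a turnover gene (ST2A), 2 were MYC-branch genes (CORI3 and NATA1) and 3 were touch and wound genes. Same-numbered libraries hardly deviated together (r = 0.0325 across features). The labels do not say whether they were handled together, and this correlation cannot settle it. The medians of the pathway lists without each library were computed after seeing the data. The cause of these changes was not tested. Unknown depth limits what can be said of the lowest tier.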
